A study of Mus musculus with 8 samples.

Results

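The antioxidant enzymes and Nrf2 targets followed here are 10 genes, of 18193 named on the arrays, chosen by name: Nfe2l2, which encodes the transcription factor Nrf2, the target genes Nqo1, Gclc, Gclm, Hmox1 and Txnrd1, and the enzyme genes Sod1, Sod2, Cat and Gpx4. They were read through the 24 probe sets, of 45037, whose only gene symbol is one of these. Hippocampal RNA came from male 3 × Tg-AD mice at 10 months of age, a strain that expresses mutant amyloid precursor protein (Swe), tau P301L and presenilin 1 M146V in both groups. The control group (4 arrays) ate an AIN-93G diet, and the RA group (4 arrays) ate the same diet with 0.5% rosmarinic acid (RA), a polyphenol, for 8 months. The Methods name 4 mice of average weight per group and also mention pooled RNA, so whether an array stands for 1 mouse is not settled, and p-values measure only the spread between these arrays. Each sample was hybridised to 1 Affymetrix array, on which a probe set is a group of short probes against the same transcript, and values are on the log2 scale.

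Nrf2 is held in the cytoplasm by Keap1, which marks it for breakdown. Oxidants and electrophiles, many plant polyphenols among them, loosen this hold, and Nrf2 then enters the nucleus, pairs with small Maf proteins and binds the antioxidant response element of its target genes. The targets make glutathione, reduce quinones and thioredoxin and break down haem. Superoxide dismutases turn superoxide into hydrogen peroxide, which catalase breaks down in peroxisomes and the peroxidases remove elsewhere. In brain, this response is known to be stronger in astrocytes than in neurons.

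Promoter sequences are shown here because the response element lies in DNA while the arrays read RNA, and they carry no measurement of their own. RefSeq (GRCm38.p6) windows of 250 bases before to 50 bases after the annotated start were matched for 8 of the 10 genes, in 13 windows, and not for Gclc and Hmox1. The core of the element, TGACNNNGC on either strand, occurred in 4 of the 13 windows (30.8%) and in 12.4% of all 32817 promoter windows. The 4 matches follow, read 5′ to 3′ along the strand of the gene, with capitals on the match. It reads in the orientation of the gene in Nfe2l2 and in the opposite one in the others.
Nfe2l2, chr2:75704885-75704913, minus strand: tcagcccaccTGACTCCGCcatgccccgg
Gclm, chr3:122245413-122245441, plus strand: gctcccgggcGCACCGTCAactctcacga
Txnrd1, chr10:82859104-82859132, plus strand: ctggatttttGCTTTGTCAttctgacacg
Sod1, chr16:90220696-90220724, plus strand: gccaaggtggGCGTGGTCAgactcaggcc

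The match began 240 bases before the start in Nfe2l2, 134 in Gclm, 92 in Txnrd1 and 56 in Sod1. The windows of Nqo1, Sod2, Cat and Gpx4 held none, which says only that these letters are not in these windows. Cat is shown whole because it is the only one of the 10 genes with a measured difference between the groups. Capitals mark CCAAT (or ATTGG, its reverse complement) and GGGCGG, 2 motifs common in promoters that do not overlap each other here.
Cat, chr2:103485104-103485403, minus strand: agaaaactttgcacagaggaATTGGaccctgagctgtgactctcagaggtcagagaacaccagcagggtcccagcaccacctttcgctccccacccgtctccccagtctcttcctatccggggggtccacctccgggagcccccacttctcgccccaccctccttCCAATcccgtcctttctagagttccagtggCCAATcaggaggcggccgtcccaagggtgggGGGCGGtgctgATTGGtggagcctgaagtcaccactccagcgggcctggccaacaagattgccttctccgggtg

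The Cat window held CCAAT 4 times, 2 on each strand, and GGGCGG 1 time, with no TATAAA. Of all promoter windows, 37.4% held CCAAT on either strand, 1.06% held it 4 or more times, 35.6% held GGGCGG and 13.6% held TATAAA. The cut of 4 was taken from Cat itself, so the 1.06% is no evidence about this gene. Windows of Gpx4 held CCAAT up to 3 times. The G and C content of the Cat window was 62%, against a median of 52.7% over all windows.

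Only 1 of the 24 probe sets could show a difference between the groups. The authors summarised the probes with FARMS, a factor analysis that draws the value of a probe set to a constant where its probes do not move together across the arrays, and a probe set with an SD of at most 0.01 over the 8 arrays is treated here as unmeasured. One of the 2 probe sets of Cat had an SD of 0.189, and the next highest, for Sod1, had an SD of 0.000869. The share of probe sets that vary was 4.17% among the 24 and 8.34% among all 45037. For the other 9 genes, the 5 Nrf2 targets included, these arrays therefore give neither a difference nor evidence that the groups were alike.

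**Figure D1:**
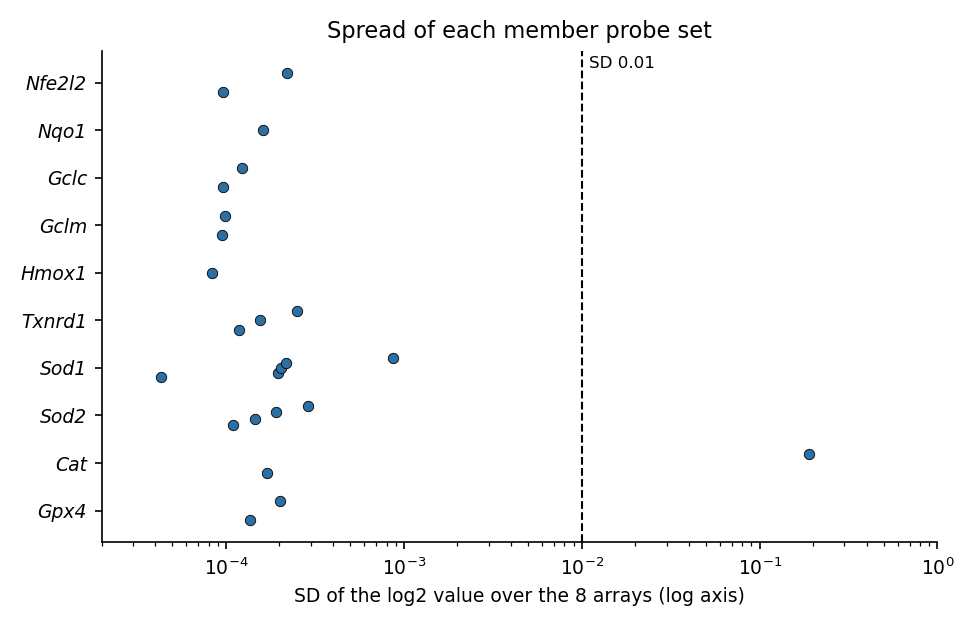
SD of the log2 value over the 8 arrays for each of the 24 probe sets, by gene, on a log axis, with 1 point per probe set and a dashed line at 0.01. Only 1 point, for Cat at 0.189, lies to the right of the line, and the other 23 lie between 4.33e-05 and 0.000869.

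Cat, the gene of catalase, had a lower value in the RA group. Its log2 value was 7.51, 7.58, 7.84 and 7.50 in control 1 to control 4 and 7.32, 7.28, 7.41 and 7.29 in RA 1 to RA 4. Every RA array lay below every control array, with control 3 the highest of all and a gap of 0.088 between the groups. The mean was 7.61 ± 0.16 (SD, n = 4) for the control arrays and 7.32 ± 0.0599 (SD, n = 4) for the RA arrays. The log2 fold change, taken as RA minus control, was -0.28 with a standard error of 0.0818 from limma. On the linear scale this is 0.821 times the control level.

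The rank product, the test named in the Methods, ranks the probe sets in each of the 16 RA-to-control comparisons of single arrays and estimates the proportion of false positives among probe sets ranked as high. That estimate treats all probe sets as varying alike, but 41279 of the 45037 are nearly constant (0 of these were called), so the proportions of false positives given here are not calibrated error rates. At a proportion under 0.05, Cat was called lower (0.00333), as were 0.575% of all probe sets and 6.89% of those that vary. It was thus 1 of 24 probe sets called lower, and none was called higher, where 0.904% of all were. An exact permutation test of the mean difference gave p = 0.0286, 2-sided, the smallest that 4 against 4 arrays can give, and groups that do not overlap, with RA lower, occurred in 2.87% of the probe sets that vary. limma, which sets a difference against the spread of the probe set itself, gave an adjusted p = 0.375 over all probe sets.

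limma called none of the 24 probe sets and none of all 45037 (0%) at an adjusted p under 0.05, with 6 and 4553 at an unadjusted p under 0.05. Among the 3758 probe sets that vary, 125 had a lower limma p than Cat and 151 a lower log2 fold change, and 73.1% had a mean that was higher with RA, the opposite direction to Cat. The difference kept its direction when any array was left out, with log2 fold changes of -0.32 to -0.21. It was smallest without control 3, where the proportion of false positives was 0.0468. The call was lost (proportion of false positives 0.669) when only the probe sets that vary were ranked.

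The second probe set of Cat, with the higher mean of the pair, was 7.49 on every array (SD 0.00017 over the 8 arrays) and is unmeasured. The lower level in the RA group thus rests on 1 probe set. Which part of the transcript each of the pair covers was not stated in the sources used here.

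**Figure D2:**
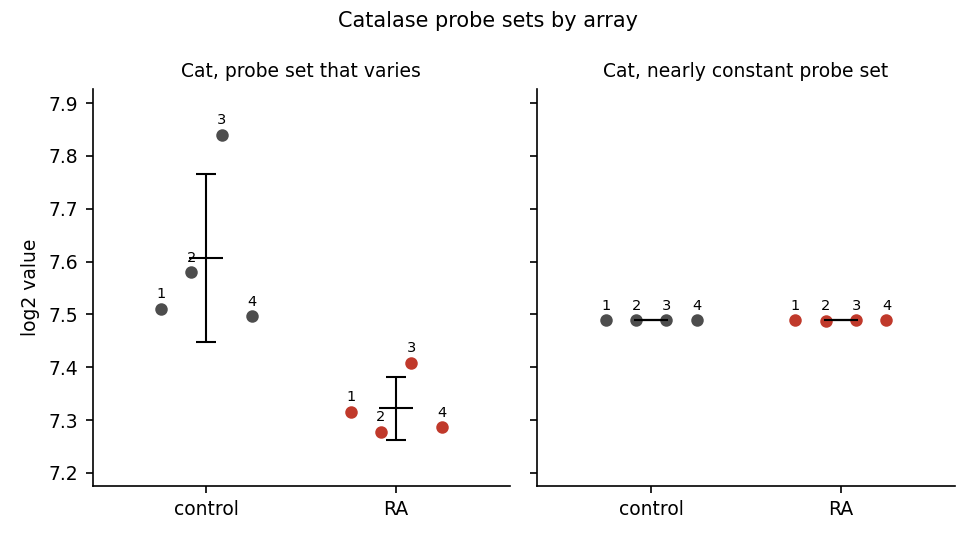
Log2 values of both Cat probe sets in the control and RA groups, with 1 numbered point per array and bars for the mean ± SD (n = 4). In the left panel the RA arrays, at 7.28 to 7.41, sit below the control arrays, at 7.50 to 7.84, and in the right panel all arrays lie at 7.49.

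By the smallest root mean square difference between centred log2 values over the 8 arrays, the genes with a pattern most like Cat, of 3408 candidate probe sets, were Tff1, a secreted trefoil peptide (0.059), and Rufy3, a neuronal adaptor protein (0.068). Tff1 lay at 7.13 to 7.47 with the control diet and at 6.95 to 7.09 with RA. Rufy3 lay at 8.31 to 8.51 and 8.08 to 8.23. In both, as in Cat, control 3 was the highest array and the groups did not overlap. The values of these genes were picked for their likeness to Cat, so their direction is no further evidence.

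Cat was set beside marker genes of the cell types that a dissected hippocampus can hold. In bulk tissue, fewer cells of a type and less RNA per cell cannot be told apart. Each list was read with 1 probe set per gene, the one with the highest mean. Read in this way, 1.34% of all genes were called higher and 0.511% lower. All 8 listed genes of hippocampal neurons have a probe set, of which 6 vary, and 1 was called lower. The mean of those that vary was 7.81 to 8.40 in control arrays and 7.65 to 8.31 in RA arrays, with control 2 the highest and RA 2 the lowest. The choroid plexus genes stood apart: 9 of the 10 listed have a probe set, all 9 vary and all 9 were called higher in the RA group. Their mean log2 value was 5.74 to 5.77 in control 1, control 2 and control 4 and 8.29 in control 3. It was 5.71 in RA 2 and 6.62, 7.59 and 8.03 in RA 1, RA 3 and RA 4. Ttr, the abundant transport protein of the choroid plexus, ran from 7.67 in RA 2 to 13.39 in control 3. Though it was called higher, its groups overlapped, with an adjusted p = 0.766 from limma and p = 0.486, 2-sided, from the exact permutation test.

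Control 3 was the highest array and RA 2 the lowest both for the choroid plexus genes and for Cat. The arrays between them did not share an order. RA 1, RA 3 and RA 4 had choroid plexus means of 6.62, 7.59 and 8.03, above the remaining control arrays at 5.74 to 5.77. Their Cat values, 7.32, 7.41 and 7.29, lay below those of every control array. Genes of oligodendrocytes, the myelin-forming cells, were lowest in control 1 (mean 8.73) and RA 2 (8.53), where the other arrays lay at 9.12 to 9.98, and none of the 5 with a probe set was called. Without these 2 arrays, a choice made after the values were seen, the log2 fold change of Cat was -0.30 and it was called (proportion of false positives 0.016). Resting on fewer arrays, picked by their values, this fit cannot tell what part these cells have in the level of Cat. The mean of the astrocyte genes, of which 5 of 8 vary, was 9.17 to 9.29 in control arrays and 9.27 to 9.35 in RA arrays, with 1 called higher. Microglial genes (5 of 8 vary) had a mean of 7.84 to 8.26 and 8.13 to 8.44, with none called. Meningeal genes, of which 7 of 8 vary and 5 were called higher, had a mean of 6.84 to 7.22 and 6.91 to 7.88, with RA 2 the highest. Endothelial genes (2 of 6 vary, 1 called higher) lay at 7.08 to 7.35 and 7.20 to 7.73. The only blood gene that varies, Alas2, an enzyme of haem synthesis in red cell precursors, lay at 5.81 to 6.47 and 5.81 to 6.27 and was not called. The part of any of these cell types in the level of Cat was not tested.

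**Figure D3:**
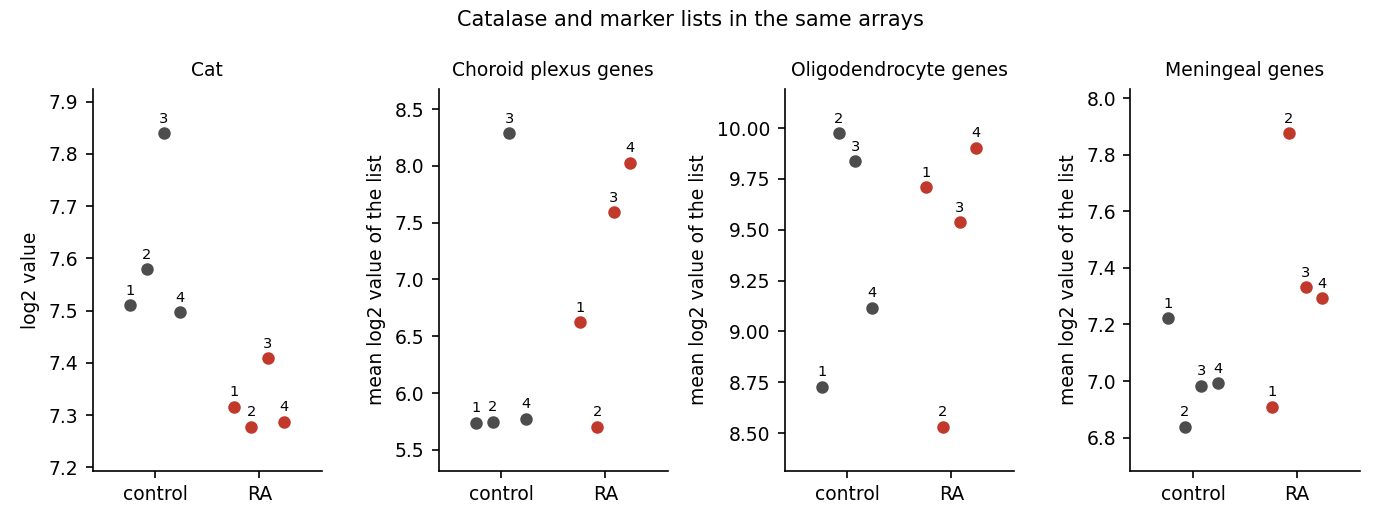
Log2 value of Cat and the mean log2 value of the varying genes of 3 marker lists (choroid plexus, oligodendrocytes, meninges) in the same arrays, with 1 numbered point per array. The choroid plexus mean is highest in control 3 (8.29), RA 4 (8.03) and RA 3 (7.59), with RA 1 (6.62) between these and the rest, the oligodendrocyte mean is lowest in RA 2 (8.53) and control 1 (8.73), and every RA array lies below every control array for Cat.

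The transcription factor and its targets were unmeasured. Nfe2l2 has 2 probe sets, at 6.81 (SD 0.00022) and 5.14 (SD 9.64e-05) over the 8 arrays. Nqo1, the quinone reductase most often used as a readout of Nrf2, has 1 probe set at 5.68 (SD 0.000162), and Hmox1, the inducible haem oxygenase, has 1 at 5.76 (SD 8.27e-05). Levels of different probe sets cannot be compared, so none is called low or absent.

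Gclc and Gclm encode the catalytic and modifier subunits of the enzyme that makes the glutathione precursor. Gclc was read at 7.81 (SD 9.59e-05) and 7.66 (SD 0.000123) and Gclm at 7.75 (SD 9.91e-05) and 7.23 (SD 9.47e-05). Txnrd1, the cytosolic thioredoxin reductase, was read by 3 probe sets at 7.65 (SD 0.000251), 6.11 (SD 0.000118) and 5.77 (SD 0.000156). To 2 decimals, every probe set in these groups held the same value on all arrays, except 1 of Gclc that rounds to 7.80 or 7.81.

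The enzymes beside Cat were unmeasured too. Sod1, the cytosolic dismutase, has 5 probe sets, at 10.49 (SD 0.000869), 10.11, 6.28, 5.74 and 5.58, and Sod2, its mitochondrial counterpart, has 4, at 8.46, 8.38, 7.65 and 6.07. Gpx4, the selenoprotein that reduces lipid peroxides in membranes, has 2, at 9.89 (SD 0.000202) and 9.21 (SD 0.000137). None of these SDs reached that of the first Sod1 probe set.

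In 3 of the 23 nearly constant probe sets, 1 of Gclm and both of Gpx4, every RA value lay above every control value, and 2.82% of all nearly constant probe sets had groups parted in this direction. The largest absolute log2 fold change among the 23 was 0.00126. Since these probe sets are unmeasured, neither such differences nor the limma p-values of these probe sets are read as changes in a transcript.

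The wider antioxidant system was read from a list of 56 genes, of which 50 have a probe set that names them alone, taking the probe set with the highest mean for each. On these probe sets, 13 of the 50 genes vary between the arrays (26%), where 8.34% of all 45037 probe sets vary. The first share counts 1 probe set per gene and the second counts every probe set, so they are not like for like. The other 37 are unmeasured on the probe set read, which gives neither a difference nor evidence that the groups were alike. Another probe set of the same gene may vary, as for Cat, where the one with the higher mean does not. The rank product called 2 higher, the peroxidases Gpx8 and Prdx4, none lower, and 48 were not called. On the same reading, 1.34% of all genes were called higher and 0.511% lower. Only probe sets that vary were called, with 407 of these 3758 called higher, so the 2 are better set against the 13 than against the 50. The 407 and 3758 again count every probe set, not 1 per gene. limma called none, with 0.437 as the lowest adjusted p among the 13 and 3 at an unadjusted p under 0.05. The mean of all 13 was higher with RA, by 0.01 to 0.30 on the log2 scale with a median of 0.15. Among all 3758 probe sets that vary, 73.1% had a higher mean with RA and the median was 0.069. The list was chosen with earlier results of these data known, so the shared direction is not read as a result about these genes.

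Of 7 peroxidase genes, 3 vary. Prdx4, a peroxiredoxin of the endoplasmic reticulum, had log2 values of 7.17, 7.21, 7.40 and 7.12 in control 1 to control 4 and 7.40, 7.40, 7.63 and 7.39 in RA 1 to RA 4. Control 3 alone of the control arrays reached the RA arrays. The log2 fold change was 0.23 (standard error 0.0802, adjusted p = 0.437 from limma), and Prdx4 was called higher at a proportion of false positives of 0.032. The call was lost without control 2 or any 1 of the RA arrays, with log2 fold changes of 0.17 to 0.29 when 1 array was left out.

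Gpx8, a glutathione peroxidase of the same compartment, had log2 values of 5.70, 5.58, 6.57 and 5.65 in control 1 to control 4 and 5.82, 6.09, 6.17 and 6.61 in RA 1 to RA 4. Its log2 fold change was 0.30 (standard error 0.271, adjusted p = 0.737 from limma), and it was called higher at a proportion of false positives of 0.025, a call lost without control 2 or any 1 of the RA arrays. The fold change was 0.53 without control 3 and 0.15 without RA 4. These are the highest arrays of their groups for Gpx8 and for the choroid plexus genes, whose part in the result was not tested.

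Gpx3, the secreted glutathione peroxidase, had log2 values of 6.59, 6.25, 6.12 and 6.61 in control 1 to control 4 and 6.69, 6.86, 6.59 and 6.27 in RA 1 to RA 4. The groups overlapped, with a log2 fold change of 0.21 (standard error 0.168). It was not called (proportion of false positives 0.0533), though it was without control 1 (0.0277) or control 4 (0.031). The fold change was 0.12 without control 3, 0.13 without RA 2 and 0.32 without RA 4. The probe sets read for the thioredoxin system (4 genes) were all unmeasured. So were those for the supply of NADPH, the reducing power these enzymes draw on (5 genes).

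Among 10 genes of conjugation and quinone reduction, 4 vary and none was called. Gstm1, a glutathione transferase, lay at 9.10, 8.76, 8.70 and 8.91 in control 1 to control 4 and 9.24, 9.08, 9.04 and 8.89 in RA 1 to RA 4. Its log2 fold change was 0.20 (standard error 0.111). Its values overlapped between the groups, and its probes may also bind the near-identical genes of its family. It was not called with all arrays (0.0884), but was without control 1 (0.0214).

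Of 6 genes of glutathione synthesis and recycling, only Slc7a11 varied on the probe set read, and the rest were unmeasured. Slc7a11 is the cystine transporter that feeds glutathione synthesis and is an Nrf2 target. It lay at 6.40, 6.30, 5.98 and 6.44 in control 1 to control 4 and 6.33, 6.74, 6.28 and 6.45 in RA 1 to RA 4. Its log2 fold change was 0.17 (standard error 0.14). Control 3 was the lowest array, without which the fold change was 0.07, and it was 0.08 without RA 2, the highest. Of 9 regulators of Nrf2, only Mafg, a small Maf partner, varied on the probe set read. Its log2 fold change was 0.09 (standard error 0.0792) and ran from 0.03 without control 3 to 0.13 without control 4. The probe sets read for the others, Keap1 included, were unmeasured.

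Sod3, the extracellular dismutase, lay at 5.92, 5.88, 6.62 and 5.96 in control 1 to control 4 and 6.13, 6.22, 6.32 and 6.32 in RA 1 to RA 4. Every RA array lay above the other 3 control arrays and below control 3. The log2 fold change was 0.15 (standard error 0.174) and Sod3 was not called (proportion of false positives 0.06), but without control 3 it was 0.33 and called (0.00881). The fold change was lowest, at 0.08, without control 2.

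Selenop, the selenium carrier of plasma, was the only one of the 13 genes whose groups did not overlap. It lay at 10.58, 10.59, 10.56 and 10.59 in control 1 to control 4 and at 10.60, 10.62, 10.60 and 10.59 in RA 1 to RA 4. RA 4 exceeded the control arrays only beyond the second decimal, and the SD over the 8 arrays, 0.0177, was close to the limit of 0.01. The log2 fold change was 0.02 (standard error 0.0094, adjusted p = 0.491 from limma), and the exact permutation test gave p = 0.0286, 2-sided. Groups parted in this direction occurred in 2.71% of the probe sets that vary, and Selenop was not called with all arrays (proportion of false positives 0.0903) or with any 1 left out. The remaining 5 genes that vary had overlapping groups and were not called.

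**Figure D4:**
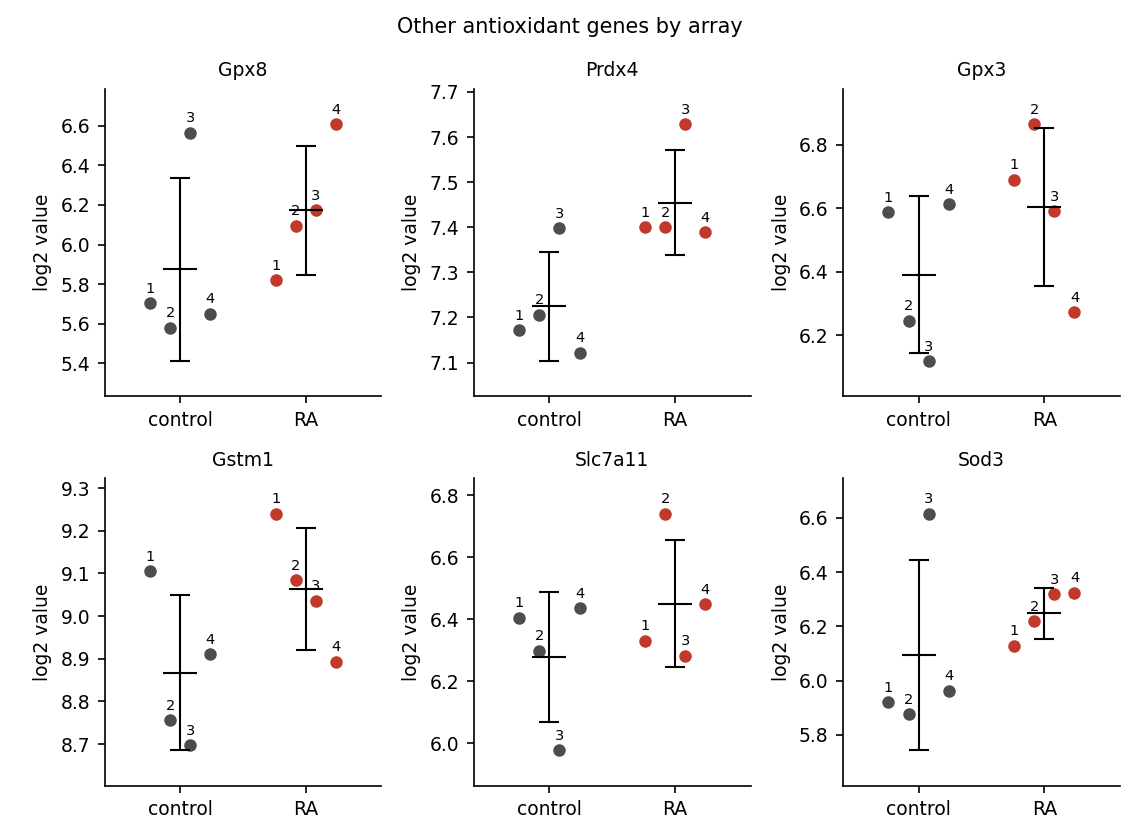
Log2 values of 6 other antioxidant genes in the control and RA groups, with 1 numbered point per array and bars for the mean ± SD (n = 4). The groups overlap in all 6, and control 3 is the highest control array for Gpx8 (6.57), Prdx4 (7.40) and Sod3 (6.62) and the lowest for Gpx3 (6.12), Gstm1 (8.70) and Slc7a11 (5.98).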

How the data were processed

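Hippocampal RNA of the 4 control and 4 RA samples was hybridised to 1 Affymetrix Mouse Genome array each. The authors condensed the probes of a probe set to 1 deposited log2 value with FARMS in R 2.10.1 and Bioconductor 2.2. How the arrays were scaled to each other was not given in the sources used here. They were used without further scaling. Array medians lay at 5.829 to 5.831 for control and 5.833 to 5.835 for RA, and the number of arrays limits the precision.

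Without 64 control probe sets, the table held 45037, of which 34945 name 1 gene, 932 several and 9160 none. Symbols of the platform annotation were updated through gene numbers (34741), an accession (1) or kept as listed (203), with GRCm38.p6 names. As in the Methods, the rank product was the main test. It was written in R 4.3.3 with 100 permutations within arrays, and a probe set was called where the estimated share of false positives was under 0.05. limma 3.58.1 gave fold changes with their standard errors and p-values adjusted by Benjamini-Hochberg, and both were tested on simulated data for the recovery of added changes, not for the share of false calls. Alternatives were quantile normalization, subtraction of array medians, filters on mean and SD, each array left out, a replicate block, a threshold of 0.01, limma in 3 forms, the methods' t-test and other choices of probe set.

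The genes and lists were chosen with earlier results of these data known. The text names all 10 genes, the called genes of the wider list and, up to 4, those with the largest change. Slc7a11, Sod3, Mafg, Selenop, Keap1 and the blood gene Alas2 were named after their values were seen. For Cat, the 2 genes with the most similar pattern were named.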

Additional observations from a re-analysis of the deposited data

Results flagged for a closer look

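In groups of 4 arrays, 3 of 18 groups checked held a value far from the others by Dixon's test, which sets the gap to the nearest array against the range of the group and flags about 1 in 20 groups by chance. The groups share the same arrays, and some genes, Sod3 among them, were named after their values were seen. The 3 of 18 therefore cannot be set against that rate. Gpx8 was 6.57 in control 3, where the other control arrays lay at 5.58 to 5.70. Sod3 was 6.62 in control 3, where the others lay at 5.88 to 5.96. Prdx4 was 7.63 in RA 3, where the others lay at 7.39 to 7.40. Neither group of Cat was flagged, though control 3, at 7.84, lay above the other control arrays at 7.50 to 7.58.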

How the results depend on the processing

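The lower level of Cat kept its direction in all alternatives and its call in all rank product fits but one, the one limited to an SD above 0.01, where the log2 fold change was -0.28 and 0 probe sets of the 10 genes were called. That fit ranks only the 3758 probe sets that vary, without the nearly constant ones. It called 4 of all probe sets higher, 17 lower and 0 genes of the wider list. The filter on mean also ranks fewer probe sets, and Cat kept its call there (proportion of false positives 0.0171). With each array left out in turn, Cat had log2 fold changes of -0.32 to -0.21, 1 probe set of the 10 genes was called lower each time and 0 higher, the wider list had 0 to 5 genes called higher and 0 lower, and over all probe sets 11 to 949 were called higher and 129 to 317 lower, against 407 and 259. The highest count, 949, came without control 1, and the fit without control 2 gave 171 higher and 129 lower calls. Lower calls numbered 151 without control 3 and 166 without control 4, and higher calls 11 to 41 without 1 of the RA arrays.

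Whether array numbers pair the samples was not stated in the sources used here. Deviations of same-numbered arrays correlated at -0.393 to 0.448, which does not settle it. With the replicate block, Cat was called (proportion of false positives 0.00629), 71 of all probe sets were called higher and 0 genes of the wider list. Among probe sets with a mean above the median, 43 were called higher and 0 genes of the wider list. Without control 1 and RA 2 these counts were 37 and 0. At a threshold of 0.01 they were 26 and 0, with 156 of all called lower. limma in each of its 3 forms and the methods' t-test after Benjamini-Hochberg adjustment called 0 in every set. At an unadjusted p under 0.05, the methods' t-test gave 4 probe sets of the 10 genes higher and 2 lower, 1976 of all higher and 2119 lower, and 6 genes of the wider list higher. Of the probe sets of the 10 genes, only 1 of Cat varies, and it was lower. The 4 higher ones are therefore unmeasured and are not read as changes in a transcript. With the values rescaled, limma's adjusted p for Cat was 0.0228 (quantile) and 0.0104 (medians), in fits that called 28543 and 41443 probe sets in all, 28292 and 41093 of them nearly constant. Gpx8 and Prdx4 lost their calls in each fit named in this paragraph that called 0 genes of the list.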
